A study of Homo sapiens with 12 samples.

Results

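Among the 8 knockout and rescue libraries of PLC/PRF/5 cells, a human hepatoma line, the 4 whose titles end in number 2 were compared with the 4 that end in number 1. These 8 libraries were chosen by the last digit of the sample title, out of 12 in all. The other 4 are control libraries, whose genotype is given as WT (wild type). PLC_KO1_1 and PLC_KO1_2 are knockout libraries of line 1, PLC_KO1_RES_1 and PLC_KO1_RES_2 are libraries of line 1 with HKDC1 put back (rescue), and line 2 (KO2) has the same 4 kinds. The prefix PLC is dropped from here on. Number 2 was paired with number 1 of the same line and state, which gave 4 pairs: KO1, KO1_RES, KO2 and KO2_RES. HKDC1 is named for its hexokinase domain and belongs to the family of glucose-phosphorylating enzymes, and the study asked what it does in liver cancer. By the design text, HKDC1 was knocked out in the cells behind all 8 libraries. The labels do not say what the number stands for, whether a line is 1 clone, how HKDC1 was knocked out or put back, or whether libraries came from separate cultures, so p-values measure only the spread between these libraries, which may be technical.

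A second label bears on the number. The genotype field of the labels calls every number 1 library a knockout and every number 2 library a rescue, whatever its title says. HKDC1 mRNA followed the titles. Its level in number 1 libraries was 152, 1248, 90.5 and 509.5 CPM, in the order KO1, KO1_RES, KO2 and KO2_RES that is used for every list of 4 values below. In number 2 libraries it was 147, 1543, 49.3 and 609 CPM in the same order. CPM is the usual depth-normalised read count, here with library sizes scaled by TMM factors over all 12 libraries. Rescue libraries were above knockout libraries within each line and each number, and the control libraries, in order 1 to 4, had 157, 157, 183 and 124 CPM. The difference between the numbers was -0.08 ± 0.17 on the log2 scale (value ± SE over 4 pairs; edgeR quasi-likelihood test, Benjamini-Hochberg adjusted p = 0.74) and pointed up in both rescue pairs and down in both knockout pairs. In the knockout pairs alone it was called, at a log2 difference of -0.46, but the pairs were unlike, at -0.05 in KO1 and -0.88 in KO2. The reads counted at HKDC1 do not show whether the transcript is intact, so in the knockout libraries this level does not check the knockout itself.

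The genes below belong to a few known programs. ATF4 is a transcription factor whose translation increases when amino acids are short or the endoplasmic reticulum is stressed, and it switches on genes for amino acid import and synthesis. NF-kB is a family of transcription factors held inactive in the cytoplasm by inhibitors such as NFKBIA, and its targets include chemokines, the secreted proteins that attract leukocytes. Liver cells also carry a set of enzymes that break down amino acids and pass their nitrogen to urea, and liver tumours keep these enzymes to differing degrees.

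Depth ranged from 36075411 to 68040103 counted reads over the 8 libraries. Number 2 was shallower than number 1 in both pairs of line 1 and deeper in both pairs of line 2. The share of reads with no gene feature on the counted strand was 11.1% to 14.1% in number 1 libraries. It was 13.9% to 14.2% in 3 number 2 libraries and 19.5% in KO2_RES_2. This class may hold reads between genes, in introns or on the other strand, which the counts do not separate. The share of reads in the 10 most abundant genes was higher in number 2 in 4 of 4 pairs (means 9.77% and 10.6%; exact sign-flip permutation test over pairs, two-sided p = 0.125, the smallest that 4 pairs allow). The number of genes at 1 CPM or more also was higher in 4 of 4 pairs, at means of 13639 and 14006 genes, with the same p of 0.125. Because KO2_RES_2 stood apart, counts of the lists are also given without the KO2_RES pair where the pair decides several calls.

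Number 2 libraries differed from number 1 libraries at 3966 of 18237 genes tested (21.7%) when pairs were kept together. At an adjusted p under 0.05, 1947 genes were higher (10.7%) and 2019 were lower (11.1%). Most differences were small. The median size over called genes was 0.44 on the log2 scale, and only 396 genes rose and 51 fell by at least 1 on that scale. Large changes were thus mainly rises. Of the called genes, 3860 (97.3%) had the same sign in all 4 pairs, against 44.3% of all genes tested. A call in the paired fit favours genes whose pairs agree, so this share describes the calls and is not separate support for them. The levels of number 1 and number 2 did not overlap at 2062 genes (11.3% of those tested), of which 1537 were called. Without the pair as a block the fit called 2 genes, HAL and C3P1, both higher. Without the KO2_RES pair it called 2903 genes (16.1%), and without KO1_RES or KO2 it called 1263 (6.81%) or 1435 (7.99%).

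The differences were present in both lines, whose libraries are separate. Line 1 alone called 1742 genes (9.86% of those tested) and line 2 alone 1839 (9.64%). Line 1 gave 1737 calls among the 17238 genes tested in both lines, and 95.4% of them had the same sign in line 2. Line 2 gave 1771 such calls, of which 94.4% had the same sign in line 1. Both lines called 681 genes in the same direction, which is 39.2% of the calls of line 1 and 38.5% of those of line 2. Over all these genes, called or not, 73.8% had the same sign in both lines, and the Pearson correlation across genes was 0.55. Genes are not independent replicates, and this correlation is given as a description.

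**Figure D1:**
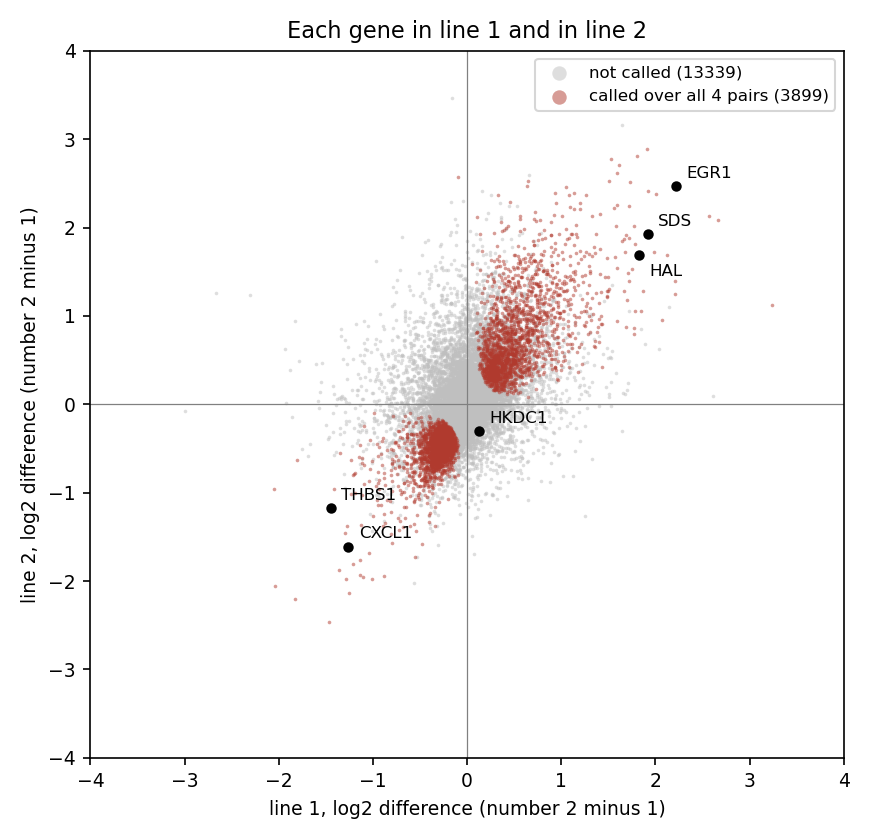
Each point is 1 of 17238 genes, with its log2 difference between number 2 and number 1 fitted in line 1 on the x axis and in line 2 on the y axis. Genes called over all 4 pairs (red) lie mostly in the upper right and lower left, a position that such a call favours. HKDC1 lies near the origin.

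SDS, HAL and THBS1 had been picked with results of these libraries known, so their values are a description of the pattern and not separate support for it. SDS (ENSG00000135094.6, chromosome 12) encodes serine dehydratase, a liver enzyme that turns serine into pyruvate and ammonia. Its level was 29.6, 28.3, 4.697 and 8.76 CPM in number 1 libraries. In number 2 libraries it was 85.9, 139, 16.5 and 35.7 CPM. Each number 2 library was about 3 to 5 times its partner, but the groups overlapped, because line 1 had more SDS than line 2 in both numbers. The fitted log2 difference was 1.92 ± 0.12 (SE; edgeR adjusted p = 5.58e-05).

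HAL (ENSG00000084110.6, chromosome 12) encodes histidine ammonia-lyase, the first enzyme of histidine breakdown. Number 1 libraries had 27.1, 18.99, 22.2 and 29.5 CPM. Number 2 libraries had 79.5, 82.4, 82.9 and 81.8 CPM. The 4 number 2 libraries lay close together and all were above every number 1 library, whatever the line or state, with a log2 difference of 1.76 ± 0.11 (edgeR adjusted p = 5.58e-05). The control libraries spanned both levels, at 111, 97.7, 25.03 and 63.3 CPM in order 1 to 4, and so did SDS, at 112, 127, 29.5 and 74.3 CPM. THBS1 (ENSG00000137801.9, chromosome 15) encodes thrombospondin 1, a secreted matrix glycoprotein, and went the other way. Number 1 libraries had 8.48, 4.25, 27.4 and 17.6 CPM and number 2 libraries 3.02, 1.61, 12.1 and 7.86 CPM. Line 2 was above line 1 in both numbers, and number 2 was below its partner in each pair, with a log2 difference of -1.29 ± 0.11 (edgeR adjusted p = 0.000396). These are bulk libraries, in which fewer cells of a type and less RNA per cell cannot be told apart.

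**Figure D2:**
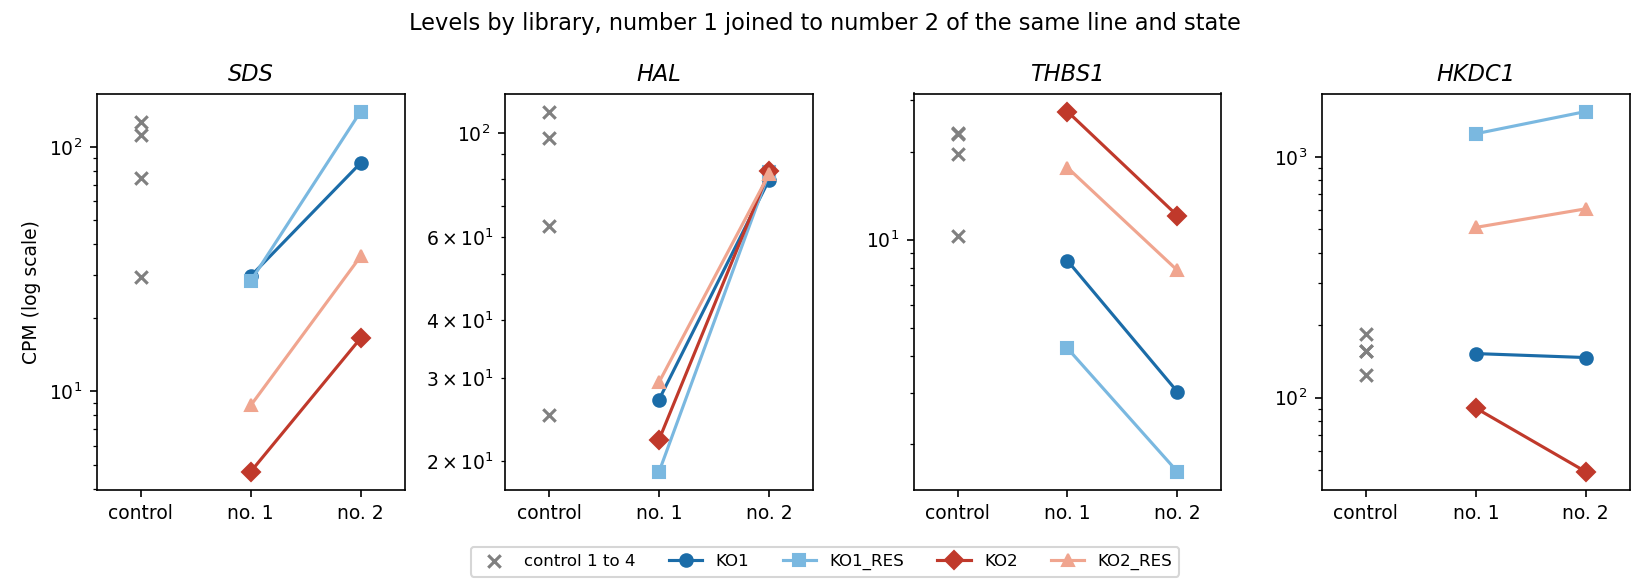
CPM on a log axis in the 4 control libraries (crosses) and in number 1 and number 2 libraries, with a line joining the pair of each line and state. SDS and HAL were higher and THBS1 lower in number 2 in each pair, and HKDC1 separated rescue from knockout libraries in both numbers.

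The genes with the largest rises were EGR1, MUC16, PIGZ, FUT1, TNS1, SDS, LINC00313, IGFBP1, SLC16A3, C3P1, MUC2 and EFHD1. They were taken from called genes with a symbol and the same sign in all 4 pairs. A mean of at least 2 CPM was required only in the higher of the 2 numbers. MUC16, PIGZ, FUT1, TNS1, SLC16A3, MUC2 and EFHD1 had means under 2 CPM in number 1 and passed through number 2 alone. EGR1, an immediate early transcription factor, had 10.2, 11.6, 5.21 and 4.399 CPM in number 1 libraries. It had 41.9, 60.9, 14.5 and 48.3 CPM in number 2 libraries, all of them above every number 1 library. Its log2 difference was 2.33 ± 0.24 (edgeR adjusted p = 0.00098). IGFBP1, a secreted liver protein that binds insulin-like growth factors, had 234, 106, 11.3 and 13.7 CPM in number 1 and 300.3, 479.9, 46.2 and 89.4 CPM in number 2. The rise of IGFBP1 was smallest in the KO1 pair, and line 2 stayed below line 1 in both numbers (log2 difference 1.82 ± 0.29). SLC16A3, the lactate exporter MCT4, went from a range of 0.355 to 1.21 CPM in number 1 to 1.22 to 3.79 CPM in number 2 and rose by a similar factor in the 4 pairs, with a log2 difference of 1.81 ± 0.21.

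Other genes of this group were expressed at low levels. MUC16 and MUC2 encode mucins, FUT1 a fucosyltransferase, TNS1 tensin 1, a protein of focal adhesions, and PIGZ an enzyme of glycolipid anchor assembly. MUC16 went from a range of 0.684 to 1.41 CPM in number 1 to 1.38 to 13.1 CPM in number 2, with hardly any rise in the KO1_RES pair. TNS1 was at 2.34, 1.77, 1.38 and 1.899 CPM in number 1 libraries and at 6.77, 6.75, 5.72 and 10.2 CPM in number 2 libraries, which did not overlap. C3P1, a pseudogene related to complement C3, also separated the numbers, at 5.99 to 7.44 CPM against 19.5 to 27.9 CPM, but its reads may be shared with related genes and its level is uncertain.

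By the same rule, the largest falls were those of CCL2, KRTAP3-1, DIO3, LRRN3, EDN1, CALB2, CXCL1, CXCL5, CXCL3, THBS1, SNRNP25 and PCDH9. Of these, 4 encode chemokines. CCL2, a chemokine for monocytes, had 0.859, 0.138, 5.37 and 4.42 CPM in number 1 libraries and 0.117, 0, 2.13 and 0.618 CPM in number 2 libraries. KO1_RES_2 had no read of it, which allows up to 0.0832 CPM (3 counts, counting error only), and line 1 was low in both numbers. EDN1, which encodes the vasoconstrictor peptide endothelin 1, had 18.96, 14.8, 24.6 and 20.1 CPM in number 1 and 10.3, 4.38, 7.98 and 3.94 CPM in number 2. Every number 2 library was below every number 1 library, and the controls were above both, at 42.1 to 84.7 CPM (log2 difference -1.65 ± 0.19, edgeR adjusted p = 0.0014). DIO3, the enzyme that inactivates thyroid hormone, went from a range of 1.87 to 11.2 CPM in number 1 to 0.367 to 2.69 CPM in number 2. CALB2, the calcium-binding protein calretinin, fell by 1.56 on the log2 scale, and PCDH9, a protocadherin, fell by 1.05.

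**Figure D3:**
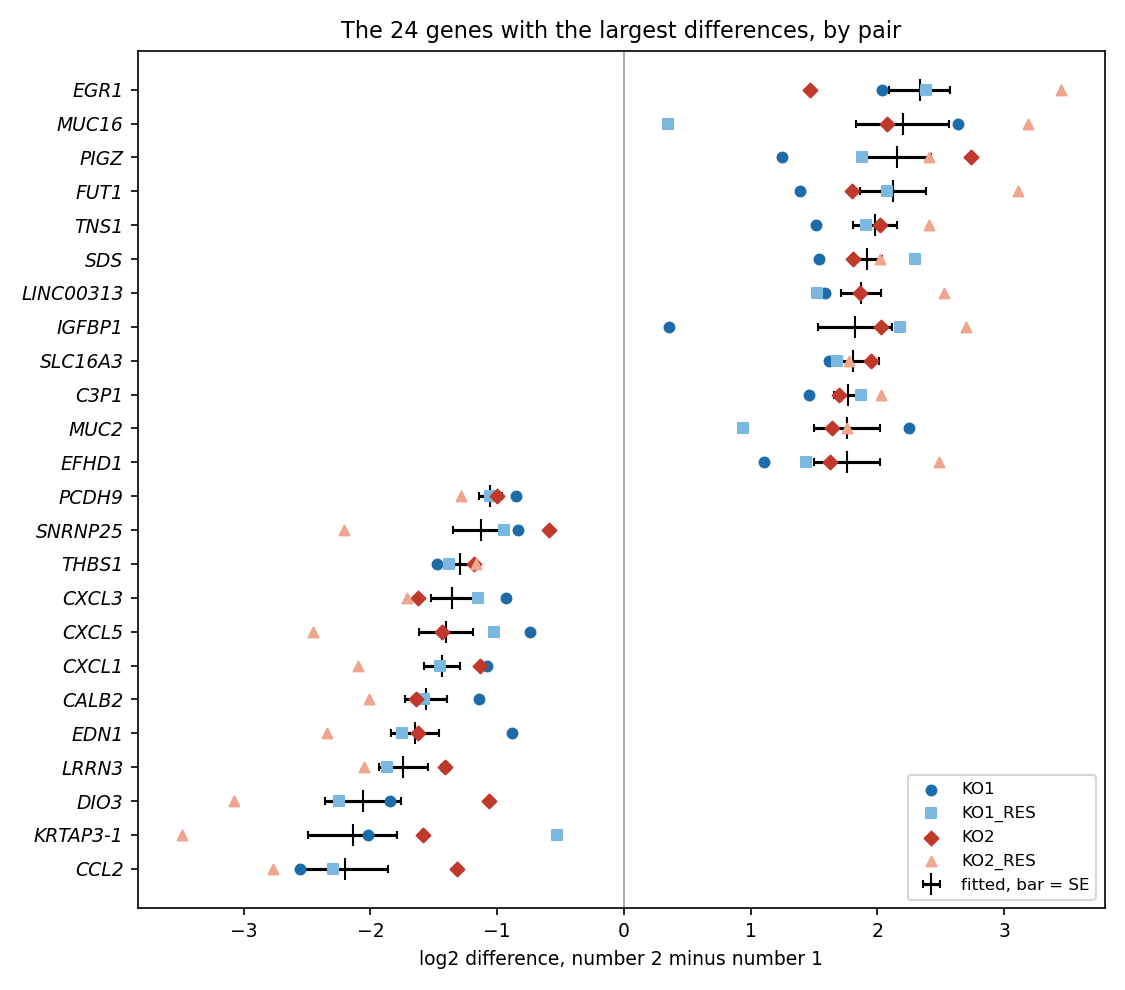
Log2 difference (number 2 minus number 1) of the 12 largest rises and 12 largest falls, with 1 symbol per pair and the fitted value with its SE in black. All pairs lie on the same side of zero because the rule that named these 24 genes required it. The KO2_RES pair is often the farthest from zero.

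The genes of 36 lists were then read together. The lists and their members were chosen with earlier results of these data known, so the counts below describe the lists. They are read against the 10.7% of all genes tested that rose, the 11.1% that fell, and the median difference of 0.01 over all genes.

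ATF4 stress response genes were higher in number 2. Of 32 members, all tested, 23 rose and none fell, with a median log2 difference of 0.47. The median was above zero in each pair, at 0.29 in KO1, 0.70 in KO1_RES, 0.22 in KO2 and 0.76 in KO2_RES, and was larger in both rescue pairs. When the KO2_RES pair was left out, 7.7% of all genes tested rose and 8.44% fell. Of this list 22 members then rose, 1 (PPP1R15A) fell and the median was 0.45. Without KO1_RES 8 members rose, and without KO2 21 rose.

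CTH, which makes cysteine from cystathionine, had 27.8, 19.6, 20.9 and 14.8 CPM in number 1 and 46.05, 54.2, 40.9 and 52.8 CPM in number 2. PCK2, the mitochondrial phosphoenolpyruvate carboxykinase, had 108, 96.96, 62.9 and 56.6 CPM and 170.4, 195, 135 and 170.0 CPM. Number 2 was above every number 1 library for both genes (log2 differences 1.25 ± 0.15 and 1.09 ± 0.12; edgeR adjusted p = 0.0017 and 0.0014). DDIT4, an inhibitor of mTORC1 signalling, rose from a range of 60.3 to 96.1 CPM in number 1 to 141 to 165 CPM in number 2, and VLDLR, a lipoprotein receptor, rose from a range of 5.603 to 10.997 CPM in number 1 to 14.7 to 18.4 CPM in number 2. FGF21, a hormone secreted by stressed liver, reached the highest difference of the list, 1.502. Its levels were 0.169 to 0.328 CPM in number 1 and 0.424 to 1.36 CPM in number 2. It was not called when KO1, KO1_RES or KO2_RES was left out.

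ASNS, CHAC1, TRIB3, SESN2 and ATF3 were chosen for description after their values were seen. ASNS, asparagine synthetase, had 336, 239, 351 and 258 CPM in number 1 and 425, 418, 417 and 454 CPM in number 2. CHAC1, which degrades glutathione, had 54.03, 45.7, 81.1 and 53.8 CPM and 90.6, 85.96, 97.9 and 103 CPM. The numbers did not overlap for either gene, and the difference was smallest in the KO2 pair (log2 differences 0.55 ± 0.11 and 0.71 ± 0.11). TRIB3, a pseudokinase, and SESN2, a leucine sensor, rose by 0.74 and 0.71. ATF4 mRNA itself did not pass the test, at 492, 383, 451 and 373 CPM in number 1 and 490.1, 507, 401 and 380.5 CPM in number 2 (0.07 ± 0.10, edgeR adjusted p = 0.67), and DDIT3, which encodes the stress factor CHOP, did not either (0.36 ± 0.13, adjusted p = 0.063), but DDIT3 was called higher without the KO2_RES pair and with the length and GC offsets described below. Other members that did not pass were the amino acid carriers SLC7A5, SLC3A2, SLC1A5 and SLC38A2, together with ATF5, JDP2 and PPP1R15A.

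ATF4 binds composite C/EBP-ATF elements. The motif TGATGNAA, searched on both strands of the 250 bases before the start of each gene, was found in 4 of the 27 tested members with a promoter in the RefSeq table (14.8%). Those 4, CHAC1, ASNS, FGF21 and ATF3, were all called higher, though FGF21 and ATF3 lost the call without the KO2_RES pair. ASNS, FGF21 and ATF3 also lost it without the KO1_RES pair. In the KO2 pair ATF3 did not rise, at 62.8 CPM in number 1 and 60.3 CPM in number 2. The motif stood in 1.61% of the 11965 promoters of genes tested, and none of its matches overlapped a match of the other motifs searched (the cAMP response element TGACGTCA and the kappaB motif described below). As a list of known ATF4 targets, it can hold more such motifs than other genes whichever way it moves. A match is a description of the sequence and does not show binding. The promoters of CHAC1, ASNS and ATF3 are printed to show where the motif lies in members called higher, with the match in capitals. They are RefSeq sequence of build GRCh38.p14, written along the gene's strand from 5′ to 3′, and the counts were made on another build.
CHAC1, chr15:40953221-40953470, plus strand: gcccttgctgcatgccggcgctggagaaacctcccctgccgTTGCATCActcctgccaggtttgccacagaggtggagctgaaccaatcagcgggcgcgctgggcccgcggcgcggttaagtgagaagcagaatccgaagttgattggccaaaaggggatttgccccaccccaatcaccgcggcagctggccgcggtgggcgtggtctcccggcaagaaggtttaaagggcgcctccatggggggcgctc
ASNS, chr7:97872409-97872658, minus strand: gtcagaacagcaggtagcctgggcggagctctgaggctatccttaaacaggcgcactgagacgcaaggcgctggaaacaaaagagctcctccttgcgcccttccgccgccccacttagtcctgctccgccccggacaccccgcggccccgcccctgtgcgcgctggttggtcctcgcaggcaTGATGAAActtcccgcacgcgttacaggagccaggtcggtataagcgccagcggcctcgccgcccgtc
ATF3, chr1:212565157-212565406, plus strand: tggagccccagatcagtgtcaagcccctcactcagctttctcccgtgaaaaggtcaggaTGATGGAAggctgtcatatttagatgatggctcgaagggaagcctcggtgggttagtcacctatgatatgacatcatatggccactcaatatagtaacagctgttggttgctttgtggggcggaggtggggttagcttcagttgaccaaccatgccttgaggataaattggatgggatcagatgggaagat
The match began at base -209 from the start of CHAC1, at -68 in ASNS and at -191 in ATF3.

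Genes that supply serine were measured beside these. Of 18 genes of serine, one-carbon and proline synthesis, 5 rose and 2 fell (median 0.10). ALDH1L2, a mitochondrial folate enzyme, rose by 1.59, at 30.1, 22.2, 1.22 and 0.714 CPM in number 1 and 59.5, 54.5, 4.296 and 5.89 CPM in number 2, far lower in line 2 than in line 1 in both. PHGDH, the first enzyme of serine synthesis, had 132, 80.7, 135 and 76.95 CPM in number 1 and 186, 155, 182 and 193 CPM in number 2, without overlap (0.799 ± 0.13, edgeR adjusted p = 0.00502). SHMT2, PSAT1 and CBS were the other rises. MTHFD1, a folate enzyme used in nucleotide synthesis, was among the falls. Of 21 aminoacyl-tRNA synthetase genes, which include known ATF4 targets, WARS1 rose (0.599), and KARS1, FARSA and RARS1 fell (KARS1 by 0.46), a share of calls near that of all genes. Without the KO2_RES pair 2 rose, WARS1 and AARS1, and KARS1 alone fell. With offsets for transcript length and GC content 4 rose and 2 fell.

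**Figure D4:**
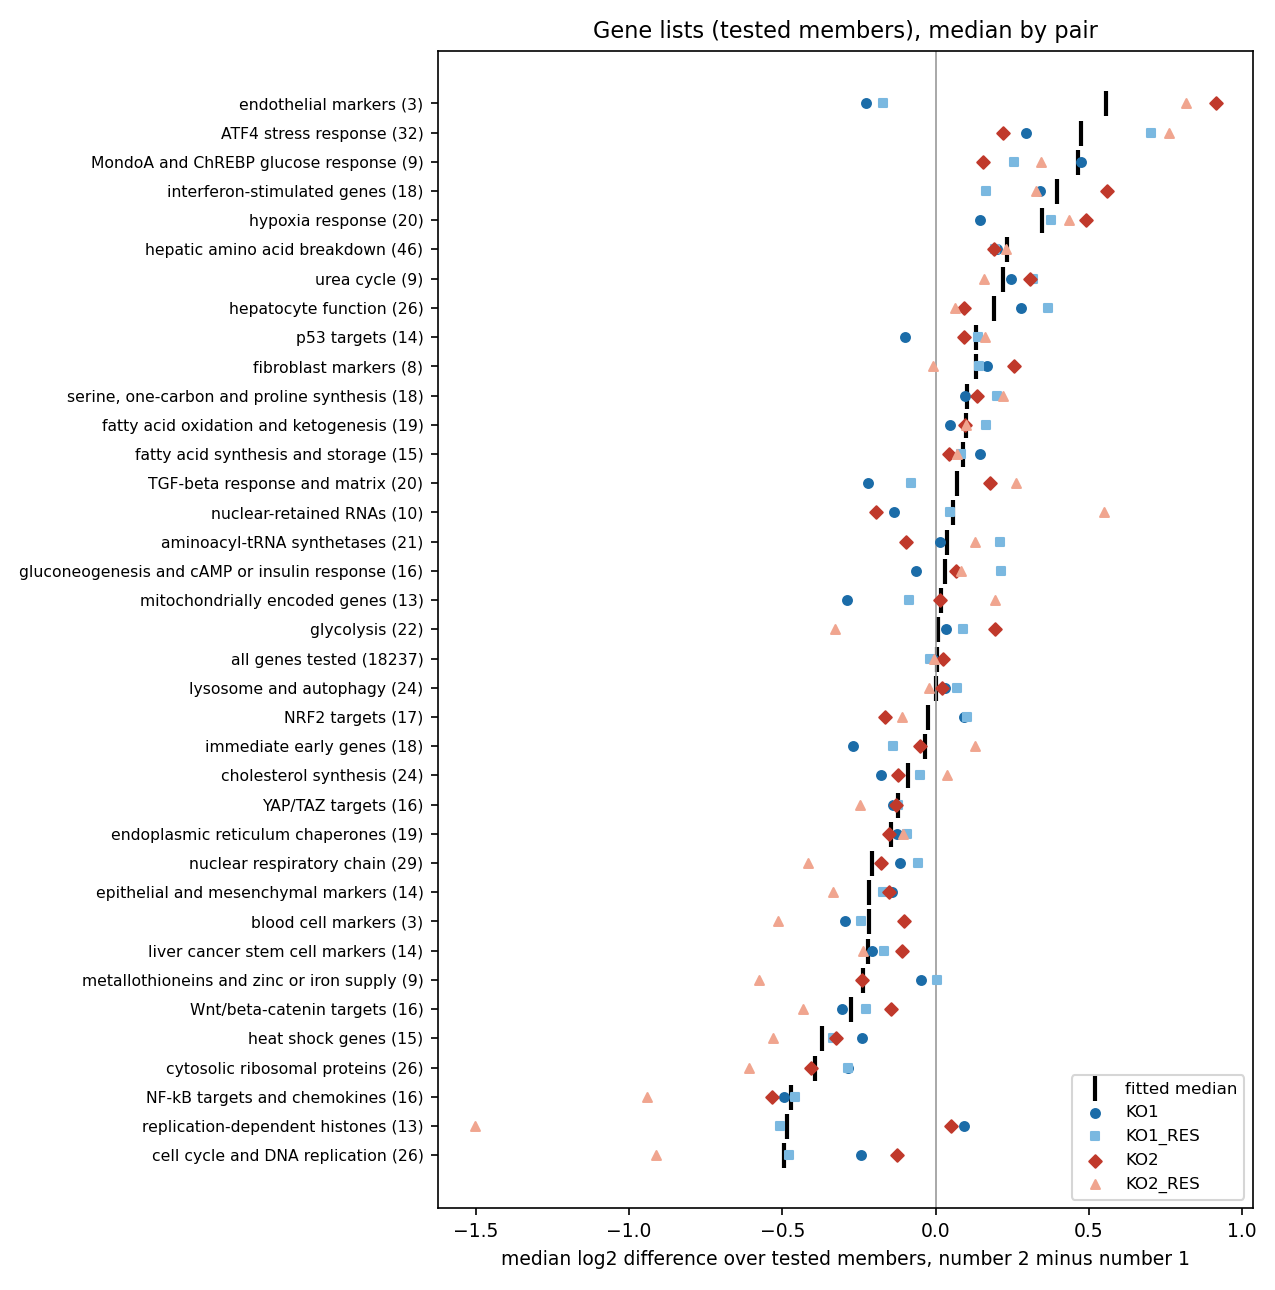
Median log2 difference over the tested members of each list (number in brackets), by pair and for the fit. NF-kB, ribosomal protein, heat shock and cell cycle lists lie below zero in all 4 pairs, and ATF4, interferon, hypoxia and amino acid breakdown lists above it. Other lists also keep to the same side in all 4 pairs, such as urea cycle above zero and Wnt and endoplasmic reticulum chaperones below.

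Enzymes that break down amino acids in liver were higher as a group, led by a few. Of 46 tested members 11 rose and 2 fell, and 36 of the 46 had a positive difference (median 0.23, between 0.19 and 0.23 in each pair). This list holds SDS and HAL. AMDHD1 acts in the histidine pathway downstream of HAL. It had 38.5, 30.6, 37.2 and 36.02 CPM in number 1 and 64.8, 59.9, 85.1 and 67.1 CPM in number 2, and the numbers did not overlap (0.95 ± 0.09, edgeR adjusted p = 0.00046). TAT, the tyrosine aminotransferase, had 15.2, 10.6, 8.16 and 8.33 CPM in number 1 and 25.4, 20.5, 18.9 and 21.8 CPM in number 2, again without overlap (1.07 ± 0.12).

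Smaller rises of this list were those of ALDH6A1, DBT, PCCA and MCCC1 in branched-chain breakdown, AASS in lysine breakdown, and SARDH and SDSL. GNMT, a glycine methyltransferase, fell by 1.22 from a range of 0.492 to 0.838 CPM in number 1 to 0.226 to 0.445 CPM in number 2. It lost its call when KO1_RES, KO2 or KO2_RES was left out. GLDC, of glycine cleavage, fell too. In the urea cycle, 3 of 9 genes rose and none fell. ASS1, argininosuccinate synthase, had 577, 769.7, 721 and 710.0 CPM in number 1 and 876, 1090.1, 892 and 986 CPM in number 2, without overlap (0.47 ± 0.09). ARG2, the mitochondrial arginase, rose by 0.79. ARG1, the liver arginase, was under 1 CPM in all 8 libraries (0.1504 to 0.3499 CPM and 0.422 to 0.622 CPM). Its call was lost when KO1_RES, KO2 or KO2_RES was left out.

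NF-kB target genes and chemokines were lower in number 2. Of 20 listed genes 16 passed the filter on low counts, 11 of these fell, none rose, and all 16 differences were negative (median -0.47). The pair medians were -0.49 in KO1, -0.46 in KO1_RES, -0.53 in KO2 and -0.94 in KO2_RES, and 11 members also fell without the KO2_RES pair. CXCL1, a neutrophil chemokine, had 107, 101, 68.2 and 69.9 CPM in number 1 libraries. It had 50.5, 37.02, 31.1 and 16.3 CPM in number 2 libraries, all below every number 1 library (-1.43 ± 0.14, edgeR adjusted p = 0.000897). CXCL5, of the same chemokine family, was at 295, 286, 276 and 259 CPM in number 1 and at 177, 141, 102 and 47.4 CPM in number 2. The 4 number 1 libraries had nearly the same CXCL5, while number 2 libraries spread, with KO2_RES_2 the lowest (-1.403 ± 0.22). CXCL3 went from a range of 5.02 to 9.72 CPM in number 1 to 1.51 to 5.08 CPM in number 2.

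The regulators of the pathway moved in the same direction as its chemokine targets. NFKBIA, the inhibitor that is itself a target, had 206, 93.3, 128 and 109 CPM in number 1 and 82.02, 63.7, 81.9 and 49.5 CPM in number 2 (-0.92 ± 0.12, edgeR adjusted p = 0.0023). BIRC3, a ubiquitin ligase that restrains cell death, had 609, 448, 462 and 373 CPM and 327, 257, 306 and 126 CPM. For both genes number 2 was below every number 1 library. TNFAIP3, the feedback inhibitor A20, fell by 0.79, and the subunits RELB and NFKB1 fell by 0.51 and 0.44 (TNFAIP3, RELB and NFKB1 were chosen after their values were seen). TNFAIP2 and NFKB2 were also called lower. CXCL2, CXCL8, CCL20, ICAM1 and SOD2 did not pass. The control libraries covered a wide range, with CXCL1 at 13.5, 11.6, 76.3 and 44.3 CPM and CXCL5 at 24.7, 18.2, 288 and 174 CPM in order 1 to 4.

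The kappaB motif, taken as GGG, any 2 bases and then TTTCC on either strand, was in 9 of the 14 tested members with a promoter in the table (64.3%), and in 7 of the 9 that fell, against 2.03% of promoters of genes tested. A list of known NF-kB targets can hold more such motifs than other genes whichever way it moves. The promoters of the 3 CXC chemokines with the largest falls and of NFKBIA are printed to show where the motif lies, with the match in capitals, from RefSeq (GRCh38.p14).
CXCL1, chr4:73869143-73869392, plus strand: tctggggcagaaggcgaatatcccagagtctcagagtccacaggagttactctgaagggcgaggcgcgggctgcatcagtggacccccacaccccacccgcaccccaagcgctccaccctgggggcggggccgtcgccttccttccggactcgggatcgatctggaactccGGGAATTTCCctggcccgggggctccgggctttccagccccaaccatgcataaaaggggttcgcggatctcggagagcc
CXCL3, chr4:74038690-74038939, minus strand: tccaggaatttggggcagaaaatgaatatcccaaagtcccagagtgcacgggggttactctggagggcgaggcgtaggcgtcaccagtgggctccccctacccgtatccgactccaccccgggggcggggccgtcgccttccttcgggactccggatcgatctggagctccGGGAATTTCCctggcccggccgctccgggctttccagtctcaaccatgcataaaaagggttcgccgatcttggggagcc
CXCL5, chr4:73998678-73998927, minus strand: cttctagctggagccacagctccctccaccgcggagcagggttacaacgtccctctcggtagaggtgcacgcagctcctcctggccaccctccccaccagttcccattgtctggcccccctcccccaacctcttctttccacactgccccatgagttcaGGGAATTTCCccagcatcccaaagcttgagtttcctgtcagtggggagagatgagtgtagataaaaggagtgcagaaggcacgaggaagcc
NFKBIA, chr14:35404750-35404999, minus strand: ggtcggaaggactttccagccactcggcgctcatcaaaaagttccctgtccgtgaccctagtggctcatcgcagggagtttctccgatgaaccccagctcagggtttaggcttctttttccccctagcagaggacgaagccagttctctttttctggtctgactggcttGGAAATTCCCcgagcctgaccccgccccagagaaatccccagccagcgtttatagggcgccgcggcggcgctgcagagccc
The match began at base -79 in both CXCL1 and CXCL3, at -91 in CXCL5 and at -81 in NFKBIA, where it reads on the opposite strand.

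Interferon-stimulated genes were modestly higher. Of 18 tested members 9 rose and none fell (median 0.40). Without the KO2_RES pair 8 rose, against 6 without KO1_RES and 3 without KO2. OAS2 and OAS3, sensors of double-stranded RNA, rose by 1.08 and 0.48. STAT2, part of the transcription factor downstream of the interferon receptor, had 68.8, 65.1, 63.7 and 66.7 CPM in number 1 and 90.03, 79.97, 93.6 and 91.5 CPM in number 2. The 4 number 1 libraries lay within a few CPM of each other, below every number 2 library (0.42 ± 0.07, edgeR adjusted p = 0.0061). IFIT1, which binds foreign RNA caps, rose by 0.73, from a range of 2.797 to 8.89 CPM in number 1 to 4.66 to 15.7 CPM in number 2, and MX1, IFIT2, IFI6, OAS1 and ISG20 were the other rises. ISG15 and IFIH1 did not pass the test.

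Genes of growth and division were lower. Of 26 cell cycle and replication genes 18 fell and none rose, with a median of -0.496. The size differed by pair, at -0.24 in KO1, -0.48 in KO1_RES, -0.13 in KO2 and -0.91 in KO2_RES. Without the KO2_RES pair the median was -0.28, with 16 members lower and 1, MKI67, higher. Without KO1_RES 1 member fell, and without KO2 16 fell. MCM3, a subunit of the replicative helicase, had 251, 324, 342 and 365 CPM in number 1 and 187, 194, 252 and 128 CPM in number 2. KO2_RES_2 was the lowest library, and the numbers overlapped only through KO2_2 (-0.77 ± 0.16, edgeR adjusted p = 0.0095).

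MCM2 and MCM7, of the same complex, fell by 0.67 and 0.51, and CCNA2, cyclin A2, fell by 0.59. PCNA, the sliding clamp, fell by 0.51. MKI67, a marker of cycling cells, did not pass, at 126, 208, 191 and 262 CPM in number 1 and 150.4, 218, 262 and 236 CPM in number 2 (0.16 ± 0.10); PCNA and MKI67 were chosen after their values were seen. MKI67 was higher in number 2 in 3 pairs and lower in KO2_RES, while the median of the list was below 0 in all 4 pairs. Of 13 replication-dependent histone genes 1, H3C4, fell, and the list's median was 0.09 in KO1, 0.05 in KO2, -0.51 in KO1_RES and -1.503 in KO2_RES. Histone mRNAs mostly lack poly(A) tails, so a library made from poly(A) RNA samples them in part.

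Cytosolic ribosomal protein genes were lower in number 2 almost throughout. Of 26, 23 fell, none rose, and 25 were lower in all 4 pairs (median -0.39). RPS23, of the small subunit, had 413, 458, 494 and 478 CPM in number 1 and 325, 366, 344 and 307 CPM in number 2, without overlap (-0.46 ± 0.09, edgeR adjusted p = 0.0077). RPLP2 and RPL22 fell by 0.56 and 0.55. These genes have many processed pseudogenes, and reads shared with them may be left out of the counts. Without the KO2_RES pair 22 of 26 fell, against 12 without KO1_RES and 7 without KO2.

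Heat shock genes were lower. Of 15 tested members 10 fell and none rose (median -0.37), and all 15 differences were negative. Without the KO2_RES pair 10 fell as well, but 2 fell without KO1_RES and 1 without KO2. HSPA8, the constitutive HSP70 chaperone, had 2370.2, 2638, 2776 and 2753 CPM in number 1 and 2026, 1749, 1859 and 1228 CPM in number 2, without overlap (-0.64 ± 0.14, edgeR adjusted p = 0.013). DNAJA1, its co-chaperone, had 234, 242, 240.2 and 234 CPM and 190.5, 183, 181 and 162 CPM. The 4 number 1 libraries had almost equal DNAJA1, and each number 2 library was lower. HSPE1, HSPD1, HSP90AB1, HSPH1, AHSA1, CHORDC1, HSPB1 and HSPB8 were also called, while HSP90AA1, DNAJB1 and BAG3 were not. Among 29 nuclear genes of the respiratory chain 7 fell, none rose and 26 had a negative difference (median -0.21), with NDUFB3 at 65.5, 66.5, 64.03 and 63.04 CPM in number 1 and 48.9, 52.8, 49.2 and 25.8 CPM in number 2, where KO2_RES_2 stood below the rest. Only 2 of the 29 fell without the KO2_RES pair (median -0.14), against 8.44% of all genes tested. Of the mitochondrially encoded genes MT-ND1, MT-ND2, MT-ND3 and MT-ND6 fell, 9 did not pass, and the median was 0.02. None of the 13 was called with the length and GC offsets (median 0.13).

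**Figure D5:**
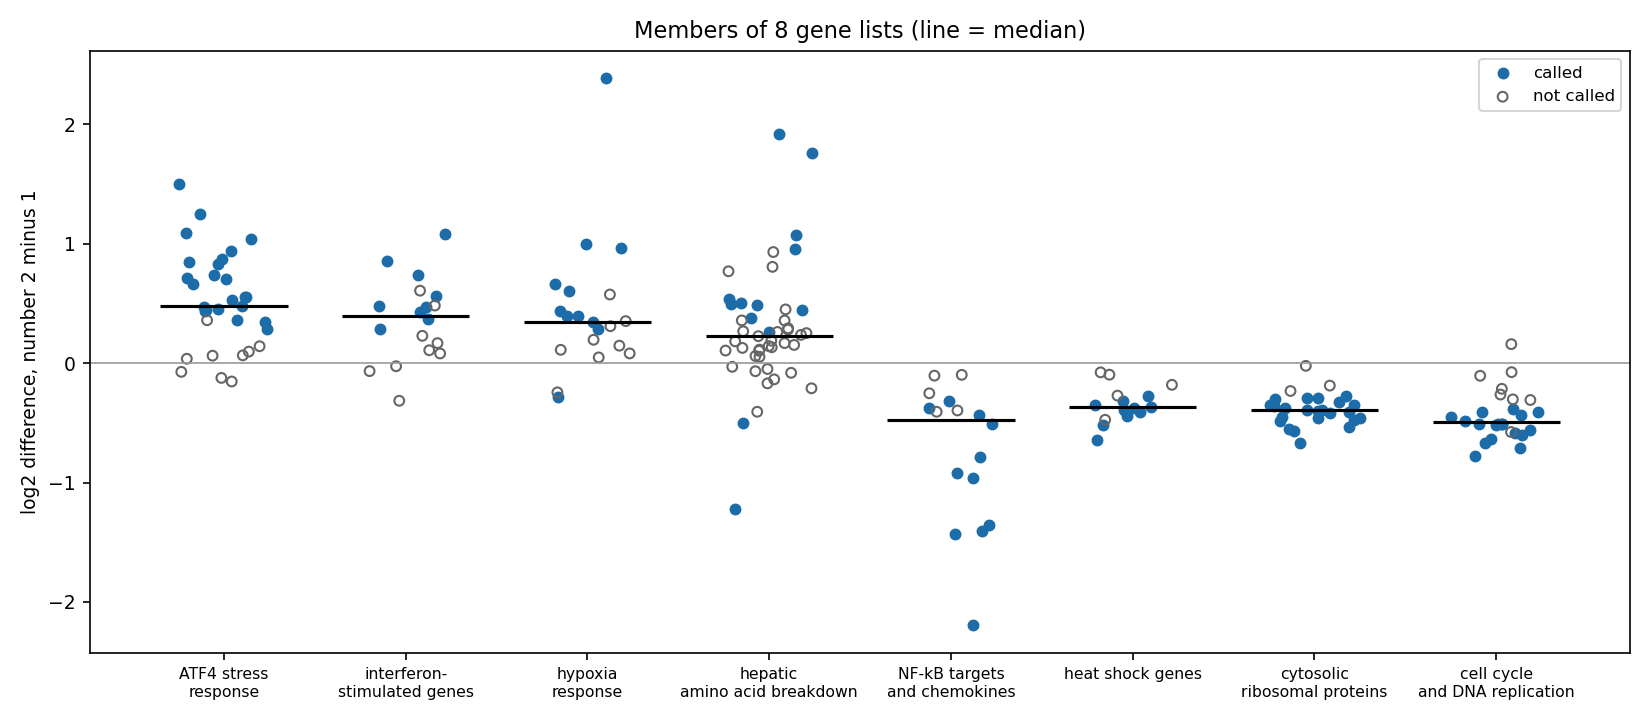
Log2 difference (number 2 minus number 1) of each tested member of 8 lists, filled where called and open where not, with the list median as a line. No called member of the ATF4 and interferon lists lies below zero, and no called member of the NF-kB, heat shock, ribosomal and cell cycle lists lies above it.

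Hypoxia response genes rose in part. Of 20 tested members 10 rose and 1, EGLN1, fell (median 0.35). Without the KO2_RES pair 9 rose and 0 fell, while 5 rose without KO1_RES and 5 without KO2. CA9, a carbonic anhydrase at the cell surface, was low but had the highest difference, 2.39 ± 0.36, at 0.286, 0.394, 0.09103 and 0.338 CPM in number 1 and 3.07, 1.36, 0.802 and 0.905 CPM in number 2 (edgeR adjusted p = 0.0035). NDRG1, a stress-induced gene, rose by 1.002, with 6.47, 1.103, 21.6 and 30.2 CPM in number 1 and 11.4, 2.54, 54.4 and 50.7 CPM in number 2, and PLOD2, a collagen lysyl hydroxylase, rose by 0.67. For NDRG1 and PLOD2 the lines differed more than the numbers did. BNIP3L, P4HA1, P4HA2, MXI1, KDM4B, PPFIA4 and INSIG2 were the other rises, and VEGFA, ADM, BNIP3 and KDM3A did not pass. The series title names hypoxia, and the labels used here give no oxygen level for any library.

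Glycolysis was split. Of 22 genes 7 rose and 2 fell (median 0.01, and -0.33 in the KO2_RES pair). ALDOC, an aldolase isoform, had 4.49, 2.23, 7.301 and 10.002 CPM in number 1 and 8.64, 5.68, 18.1 and 28.8 CPM in number 2 (1.29 ± 0.12, edgeR adjusted p = 0.000601). ENO2, an enolase isoform, rose by 1.15 and PFKFB4, which sets the level of an activator of glycolysis, by 0.59. HK2 rose by 0.56, with 15.7, 4.27, 26.9 and 18.6 CPM in number 1 and 22.5, 7.88, 40.6 and 23.3 CPM in number 2, and HK1 was just short of the threshold (0.26 ± 0.09, adjusted p = 0.0504). PFKFB3 and the glucose carrier gene SLC2A3 fell, and the abundant isoforms ALDOA, GAPDH, ENO1, PKM and LDHA did not pass.

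In the gluconeogenesis and insulin response list, 5 of 16 tested genes rose and 2 fell. Beside IGFBP1, PCK1, the cytosolic carboxykinase, rose by 0.62 (20.8, 19.05, 31.6 and 26.9 CPM against 32.5, 46.7, 49.1 and 25.4 CPM; chosen after its values were seen). PPARGC1A, a coactivator, had 100.2, 103, 19.2 and 17.8 CPM and 121, 136, 22.6 and 26.1 CPM, and the step between the lines was far larger than that between the numbers (0.36 ± 0.08). NR4A3, an orphan nuclear receptor, fell by 0.66. Of 9 tested genes of the MondoA and ChREBP glucose response, PKLR, ACACB and ARRDC4 rose and KLF10 fell. The pair differences of KLF10 were -1.20 in KO1, -0.76 in KO1_RES, 0.01 in KO2 and -0.21 in KO2_RES. ARRDC4 was lower in number 2 in the KO1 pair, at 0.716 CPM in number 1 and 0.539 CPM in number 2. The call of ARRDC4 was lost when KO1_RES, KO2 or KO2_RES was left out.

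Hepatocyte genes rose for some secreted proteins. Of 26 tested members 7 rose and 2 fell (median 0.19; 9 and 1 without the KO2_RES pair). APOB, the core protein of very low density lipoprotein, had 10367, 13756, 20.01 and 38.98 CPM in number 1 and 21601, 27606, 47.8 and 112 CPM in number 2. It was higher in number 2 in each pair by a like factor, while line 2 held only a small fraction of the APOB mRNA of line 1 and of the controls (1.21 ± 0.13, edgeR adjusted p = 0.0012). F2, prothrombin, had 113, 138, 23.5 and 25.01 CPM and 173, 238, 37.2 and 48.4 CPM, and TF, transferrin, had 977, 1096, 659 and 763 CPM and 1518, 1926, 968 and 956 CPM. F2 and TF were higher in number 2 in each pair, though TF lost the call with the length and GC offsets. APOA2, APOC3, RBP4 and CYP3A5 were the other rises, FOXA2 and APOH fell, and ALB did not pass (0.21 ± 0.10).

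Among Wnt/beta-catenin targets 8 of 16 tested fell and 2 rose (median -0.27), but without the KO2_RES pair 3 fell (LGR5, BAMBI and MYC) and none rose. Without KO1_RES, or without KO2, 3 fell and 0 rose as well. LGR5, a receptor of the Wnt pathway, had 7.05, 5.59, 16.3 and 25.8 CPM in number 1 and 4.22, 3.22, 13.2 and 11.7 CPM in number 2 (-0.74 ± 0.14, edgeR adjusted p = 0.0075). MYC, a growth regulator, had 81.5, 71.8, 73.3 and 83.97 CPM and 52.3, 57.5, 46.3 and 61.2 CPM, without overlap (-0.52 ± 0.08). AXIN2, a feedback inhibitor that reports pathway activity, fell by 0.53 and lost its call when KO1_RES, KO2 or KO2_RES was left out. NOTUM rose by 1.44 at levels up to 1.44 CPM, and also lost its call when KO1_RES, KO2 or KO2_RES was left out. Of 14 tested stem cell markers SALL4, KRT19 and BMI1 fell and ANPEP rose, and AFP, EPCAM and PROM1 did not pass.

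Adhesion and matrix genes changed in both directions. CDH1, the epithelial cadherin, had 28.96, 21.2, 20.3 and 17.5 CPM in number 1 and 45.7, 39.1, 46.1 and 49.4 CPM in number 2, without overlap (1.06 ± 0.12, edgeR adjusted p = 0.0014). VIM, the filament protein vimentin, fell by 0.65, with 234, 90.01, 104 and 83.2 CPM in number 1 and 129, 53.7, 83.8 and 51.4 CPM in number 2, and KO1_1 stood above the other number 1 libraries. CLDN1, a tight junction protein, and KRT19 fell as well, while CDH1 rose. Of 16 tested YAP/TAZ targets 5 fell, among them ANKRD1 (-0.65), AMOTL2 (-0.64) and LATS2 (-0.54), and 2 rose, NT5E (0.78) and AXL. In the TGF-beta and matrix list, with 5 rises and 2 falls of 20 tested, FN1, fibronectin, rose by 0.58, and LTBP2, TIMP3 and LOX were also among the rises. LOX was at most 1.15 CPM in the 8 libraries and had no count in either KO2 library. SMAD7, an inhibitor of TGF-beta signalling, fell by 0.93 beside THBS1 (chosen after its values were seen).

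Immediate early genes did not rise as a list. Of 18 tested members EGR1 and JUN rose, and MYC, DUSP4, SRF and DUSP1 fell (median -0.04). JUN, chosen after its values were seen, had 48.6, 43.6, 55.02 and 59.1 CPM and 70.7, 54.7, 62.8 and 115 CPM. FOS, FOSB, JUNB and IER2 did not pass.

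The remaining lists were called at shares between 13.3% and 33.3%, below and above the 21.7% of all genes tested. Of 24 cholesterol synthesis genes 2 rose, SREBF2 and MSMO1, and 3 fell, with LSS, NSDHL and IDI1 between -0.27 and -0.25; without the KO2_RES pair 1 rose and 4 fell. Of 15 tested fatty acid synthesis genes 2 rose, ACSS2 and FADS2. Of 19 fatty acid oxidation genes 4 rose, PPARA, ACADS and CPT2 among them, and none fell. Of 19 endoplasmic reticulum chaperone genes HSPA5, SEL1L and HERPUD1 rose, and CALR and SEC61B fell (median -0.15); without the KO2_RES pair 2 rose and 4 fell. HSPA5, the chaperone BiP, had 483, 440.1, 402 and 436 CPM in number 1 and 583, 573, 460.3 and 794 CPM in number 2. Of 17 NRF2 targets 4 rose, FTH1, AKR1C1 and SLC7A11 among them, and FTL fell, of 14 tested p53 targets TNFRSF10B and GADD45A rose, and of 24 lysosome and autophagy genes TFEB, ULK1 and WIPI1 rose and LAMP1 fell. GADD45A and TFEB lost the call when KO1_RES, KO2 or KO2_RES was left out. FTH1 and FTL, the ferritin subunits, went apart (0.53 and -0.41). Of 9 tested metal supply genes only FTH1 rose, and FTL and the zinc exporter gene SLC30A1 fell.

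Long noncoding RNAs were also measured, in the list drawn as nuclear-retained RNAs. NEAT1, the RNA scaffold of paraspeckles, had 1128, 2083, 1454 and 1625 CPM in number 1 and 3409.6, 3069, 2120.3 and 3293 CPM in number 2, without overlap (0.93 ± 0.16, edgeR adjusted p = 0.0062). MALAT1 and KCNQ1OT1 also rose. The falls were those of SNHG12, SNHG5 and SNHG1, host genes of small nucleolar RNAs, and 4 of the 10 did not pass. With the length and GC offsets only NEAT1 and SNHG12 were still called. Reads with no gene feature were more frequent in number 2 in 3 of 4 pairs (means 12.7% and 15.4%, exact sign-flip permutation p = 0.25). Their part in these differences was not tested.

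Markers of other cell types were also counted. Of 11 fibroblast markers 8 were tested, of which PDGFRB and COL6A3 were called higher at up to 4.46 CPM and 0.367 CPM. Both lost the call when KO1_RES, KO2 or KO2_RES was left out. The summed level of this list was 43.6 to 86.1 CPM in number 1 libraries and 48.8 to 107 CPM in number 2, most of it FBLN1. Of 11 blood cell markers 3 were tested, and ITGAM, at most 1.94 CPM, was lower. Their summed level was 333 to 740 CPM in number 1 and 262 to 603 CPM in number 2, nearly all of it LYZ, which was not called. Of 8 endothelial markers in the files 3 were tested and none was called, and their list's summed level ranged from 0.706 to 2.34 CPM over the 8 libraries. PTPRC, PECAM1 and DCN, the defining markers of blood cells, endothelium and fibroblasts, did not pass the filter on low counts.

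Whether a gene responded to the number differently in the 2 lines depended on the fit. The test of that difference called 0 of 18237 genes (0%) in edgeR with the filter on low counts, with 1511 at an unadjusted p under 0.05 and a smallest adjusted p of 0.47, while DESeq2 called 14 and edgeR without the filter 252. Between knockout and rescue the test called 0 genes in edgeR (0%), with 799 at an unadjusted p under 0.05 and a smallest adjusted p of 0.32, while DESeq2 called 36 and edgeR without the filter 122. A miss of the threshold with so few libraries does not show that the responses were alike.

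The pairs differed in size. Of the 3966 called genes, 2751 (69.4%) had their largest pair difference in KO2_RES. Over called genes the median size was 0.32 in KO1, 0.38 in KO1_RES, 0.39 in KO2 and 0.68 in KO2_RES on the log2 scale. KO2_RES_2 is also the library with the largest share of reads with no gene feature, and the part of this in the size was not tested. Without the KO2_RES pair 68.9% of the tested calls were called again, all with the same sign, though that fit reuses libraries that made the calls.

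For several lists fewer members were called without KO1_RES or without KO2 than without KO2_RES. Without KO1_RES the ATF4 list had 8 rises, and without KO2 it had 21. The NF-kB list had 9 and 11 falls in these fits. Ribosomal protein genes had 12 falls without KO1_RES and 7 without KO2, and heat shock genes 2 and 1. Cell cycle genes had 1 fall without KO1_RES and 16 without KO2. Interferon-stimulated genes had 6 and 3 rises, and hypoxia genes 5 and 5. None of these 7 lists had a call in the other direction in these 2 fits. Without KO1_RES the list medians were 0.39 for ATF4, -0.62 for NF-kB, -0.42 for ribosomal, -0.37 for heat shock and -0.47 for cell cycle genes, and without KO2 they were 0.62, -0.52, -0.39, -0.37 and -0.59.

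Genes that rose had longer annotated transcripts, at the median, than genes that fell or were not called. The median annotated transcript length was 4248 bases for genes that rose, 2947 for genes that fell and 2924 for genes not called. Across 12436 genes, Spearman's correlation of length with the pair difference was 0.20 in KO1, 0.19 in KO1_RES, 0.10 in KO2 and 0.22 in KO2_RES. For GC content it was between -0.13 and 0.10. With offsets for length and GC content in the paired fit, 4134 genes were called (22.7%), and 87.7% of the calls were made again. The ATF4 list then had 24 rises and no fall, the NF-kB list 12 falls and no rise, and the ribosomal list 21 falls and no rise. The mitochondrially encoded list went from 4 falls to none, and the list of long noncoding RNAs from 3 rises and 3 falls to 1 of each.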

How the data were processed

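Each library was made from total RNA with a stranded mRNA kit, per the labels. The deposited values are raw read counts per gene, which the authors obtained with STAR 2.6.0b on the GRCh37 build, per the submitters' processing notes; trimming and filters are not given in the sources used here. Column 4 was used, whose total was 19.8 to 21.1 times that of the other strand. Each file listed 57820 Ensembl identifiers after 4 lines of unassigned reads, which entered no test, and 40023 identifiers had a symbol. Depth was 36075411 to 71853616 counts over the 12 libraries. A gene with 0 to 3 counts was read as at the floor, which covers counting error only.

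Counts were scaled with TMM factors over 12 libraries, filtered by filterByExpr over the 8 compared, and tested in R 4.3.3 with the quasi-likelihood test of edgeR 4.0.16, with the pair as a block and Benjamini-Hochberg adjustment over all 18237 genes. The common biological coefficient of variation was 12.3%. Calls required an adjusted p under 0.05, and SE is the size of the log2 difference divided by the square root of F. Differences of single pairs use log2 CPM with a prior count of 2. The pairs rest on the shared line and state. As a check, deviations from the number means correlated within each pair at 0.73 to 0.83, and they also did so across states of 1 line (0.49 to 0.79), so the line accounts for much of the pairing. Fits were tested on simulated data.

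Genes were named by rule. The 12 largest rises and 12 largest falls were taken among called genes. These had a symbol, the same sign in all 4 pairs and a mean of at least 2 CPM in the higher number. Also named by rule were up to 4 called members of each of 36 lists by smallest adjusted p, SDS, HAL, THBS1 and the hexokinases. Other genes were named after their values were seen. A few members of the lists are counted but not reported here by name. The 8 libraries, the members and the lists were chosen with earlier results of these data known. Alternatives were no block, additive line and state terms, RLE scaling, no filter, DESeq2 1.42.0, unstranded counts, leaving out each pair, and each line or state alone; offsets for transcript length and GC content (from GENCODE on GRCh38, matched by identifier) were added after seeing the data.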

Additional observations from a re-analysis of the deposited data

Results flagged for a closer look

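The share of reads with no gene feature was 19.5% in KO2_RES_2, apart from the 13.9% to 14.2% of the other 3 number 2 libraries. The same comparison of the highest or lowest library with the rest of its group of 4, over the genes named by rule, found 15 of 278 gene and number groups with a library apart, and chance sets apart about 1 in 20.

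In number 2, KO2_RES_2 stood apart for FUT1 (9.84 CPM against 3.45 to 4.38), SEL1L (279 against 192 to 205), LTBP2 (8.89 against 5.57 to 5.81) and NDUFB3 (25.8 against 48.9 to 52.8). KO2_2 stood apart for KRTAP3-1 (5.83 CPM against 0.537 to 1.35), ARG2 (48.3 against 75.2 to 78.8), CHORDC1 (69.7 against 78.7 to 79.4), LATS2 (62.4 against 55.4 to 56.4) and KCNQ1OT1 (31.9 against 76.7 to 82.3). KO1_2 did for MUC2, at 5.64 CPM against 0.870 to 1.29.

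In number 1, KO1_1 stood apart for AKR1C1 (164 CPM against 27.7 to 48.0), AMOTL2 (86.7 against 143 to 146) and VIM (234 against 83.2 to 104). KO1_RES_1 did for SRF (68.1 CPM against 57.3 to 59.1), and KO2_1 for FTL (4912 against 4509 to 4569).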

How the results depend on the processing

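Without the replicate block of pairs, 2 genes were called, 2 higher and 0 lower, with 2770 at an unadjusted p under 0.05. Leaving out each pair in turn gave 1263 to 3496 calls, 741 to 1782 higher and 522 to 1714 lower; the fewest came without KO1_RES (1263) and without KO2 (1435). Line 1 alone gave 1742 calls (862 higher, 880 lower), line 2 alone 1839 (1115 and 724), the knockout libraries 1354 (642 and 712) and the rescue libraries 2477 (1225 and 1252); these fits hold fewer libraries. Additive line and state terms, RLE scaling, no filter, DESeq2, unstranded counts and the length and GC offsets gave 2794 to 4835 calls. In each of these alternatives at least 99.9% of the calls that were tested kept their sign. These fits reuse libraries that made the calls, so a kept sign is not separate support. The number difference differed between lines at 252 genes with no filter on low counts and at 14 in DESeq2, and between states at 122 and 36, against 0 in edgeR with the filter; the cause was not tested. HKDC1 was at 0.23 without the block, 0.13 in line 1, 0.28 in the rescue libraries and -0.46 in the knockout libraries, and between -0.22 and 0.17 when each pair was left out. ATF4 was at -0.0474 without KO1_RES and 0.143 without KO2, -0.0686 in line 2 and -0.0861 in the knockout libraries. MKI67 was at -0.0417 in the rescue libraries and -0.0189 with length and GC offsets. Of 139 genes named by rule 137 were called, and 80 kept the call without each pair in turn. Depth limits genes near the floor, such as CCL2 and FGF21.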
